A study of Mus musculus with 15 samples.

Results

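Interferon-stimulated genes are the genes that cells switch on when an interferon binds its receptor. A set of 36 of them was chosen by gene symbol from 23509 genes measured in mouse liver: 25 targets of type I interferon, 8 guanosine triphosphatases (GTPases) that answer above all to interferon gamma, 2 immunoproteasome subunits (Psmb8 and Psmb9) and the transcription factor Irf1. All 36 were found in the tables. The livers came from male C57BL/6 mice or from Aldh2-/- mice, which lack the mitochondrial enzyme that clears acetaldehyde made from ethanol, and were 8 to 10 weeks old by their labels. Bulk RNA libraries were made from 4 ethanol-fed Aldh2-/-, 5 ethanol-fed wild-type (WT), 3 pair-fed Aldh2-/- and 3 pair-fed WT livers. By the sample annotation, every group, controls included, also received carbon tetrachloride (CCl4), a toxin that scars the liver, 2 times per week over 8 weeks, with death 24 h after the final dose. In the sample titles only the ethanol-fed groups carry CCl4. The labels name no promoter or cell type that limits the deletion, and whole liver was taken, so no value belongs to 1 cell type.

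Type I interferons act through the receptor chains Ifnar1 and Ifnar2 and a complex that holds Stat2 and Irf9 and binds a DNA element called ISRE in front of its target genes. Interferon gamma acts through Ifngr1 and Ifngr2, and its signal reaches genes through an element called GAS. Many targets answer to both, and in the liver they are expressed by hepatocytes, macrophages and endothelial cells alike. The targets include enzymes that destroy or block viral RNA, sensors of foreign nucleic acid, GTPases that attack the membranes around intracellular parasites, and proteasome subunits that change which peptides are shown to T cells.

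The elements can be read in front of the genes themselves. RefSeq windows on GRCm38.p6, from 250 bases before to 50 bases after a gene's start, were held for 28 of the 36 members. An ISRE was searched on both strands as GAAA, any 2 bases, GAAA (TTTC, any 2 bases, TTTC when it lies on the other strand), and a GAS as TTCNNNGAA, which reads the same on both strands, with overlapping matches allowed. The ISRE letters stood in 16 of the 28 members (57.1%), against 675 of 17526 genes of the tables with a window (3.85%). The GAS letters stood in 10 of the 28 (35.7%), against 1527 of 17526 (8.71%). All 7 GTPases with a window held ISRE letters and 4 held GAS letters, whereas 9 of 18 type I targets held ISRE letters and 4 GAS letters. Stretches from 6 type I targets are shown first, because of their repeated, paired or shared matches or, for Rsad2, its place among the higher genes below, with matches in capitals and each read 5′ to 3′ in the gene's own direction.
Isg15 (chr4:156200863-156200908, minus strand): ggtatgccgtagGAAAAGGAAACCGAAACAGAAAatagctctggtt
Oas1a (chr5:120907518-120907635, minus strand): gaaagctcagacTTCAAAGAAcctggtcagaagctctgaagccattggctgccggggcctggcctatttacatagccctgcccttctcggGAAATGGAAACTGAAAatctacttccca
Rsad2 (chr12:26456551-26456584, minus strand): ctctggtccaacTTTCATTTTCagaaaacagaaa
Bst2 (chr8:71537575-71537620, minus strand): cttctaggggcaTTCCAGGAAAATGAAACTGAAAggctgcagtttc
Ifit3 (chr19:34583361-34583428, plus strand): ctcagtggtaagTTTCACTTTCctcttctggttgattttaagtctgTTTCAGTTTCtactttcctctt
Ifit3b (chr19:34607757-34607824, plus strand): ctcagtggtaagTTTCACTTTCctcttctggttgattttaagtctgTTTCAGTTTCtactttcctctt
These 6 were picked with results known, and Ifit3b was too low to be tested. They leave out Ifih1, a type I target with ISRE letters that was called lower in ethanol-fed Aldh2-/- livers below. Isg15 carried 3 overlapping ISRE matches in a row. The stretches of Ifit3 and Ifit3b differed at 0 of 68 bases, and reads of these neighbouring copies may have been split between them by the authors' counting.

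The GTPases of the IRG family, the immunoproteasome subunit Psmb8 and Irf1 gave the next stretches, shown because Igtp, Irgm2 and Irgm1 were lower and Psmb8 and Gbp3, a GTPase of another family, higher in the main comparison below. Tgtp1 is added for its likeness to Igtp and Irgm2, and was too low to be tested.
Igtp (chr11:58199499-58199543, plus strand): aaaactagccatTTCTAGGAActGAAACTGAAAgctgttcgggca
Irgm2 (chr11:58214890-58214934, plus strand): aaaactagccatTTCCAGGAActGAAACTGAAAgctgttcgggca
Tgtp1 (chr11:48992302-48992346, minus strand): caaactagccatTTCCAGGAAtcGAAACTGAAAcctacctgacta
Irgm1 (chr11:48871423-48871462, minus strand): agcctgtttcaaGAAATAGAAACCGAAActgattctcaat
Gbp3 (chr3:142559987-142560026, plus strand): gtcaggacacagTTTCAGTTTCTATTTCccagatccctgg
Psmb8 (chr17:34198086-34198118, plus strand): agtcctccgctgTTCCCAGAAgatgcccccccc
Irf1 (chr11:53769912-53769944, plus strand): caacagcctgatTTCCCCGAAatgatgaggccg
Igtp and Irgm2 differed at 1 of 45 bases, and in both, as in Tgtp1, a GAS match was followed after 2 bases by an ISRE match. Irgm1 and Gbp3 held 2 overlapping ISRE matches each and no GAS match. In Psmb8 and Irf1 the single match was to GAS. A match describes the letters and does not show that a factor binds there. Of the members called higher in ethanol-fed Aldh2-/- livers below, 4 of 9 with a window held ISRE letters, and of those called lower, 4 of 7.

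The labels were borne out by the targeted gene, which was 8.82 to 11.5 FPKM in ethanol-fed Aldh2-/- livers against 544 to 688 FPKM in ethanol-fed WT livers for Aldh2, and 6.57 to 6.90 against 277 to 309 FPKM under pair-feeding. FPKM counts fragments per kilobase of gene, scaled to the library's total. The libraries summed to between 509194 and 624277 FPKM, and their relative depth, read from the smallest steps between low values, was 90.0% to 111.0% of the mean. Mitochondrial transcripts made up 15.2% to 24.2% of FPKM under pair-feeding in WT mice, compared with 6.90% to 10.8% in Aldh2-/- mice. Under ethanol it was 6.68% to 9.72%, apart from WT 5 (13.6%) and Aldh2-/- 90 (18.2%). Hepatocyte marker genes summed to at least 59430 FPKM in every library, as liver should show. Libraries are called by the number in their title. Nothing states that each is a separate mouse, so p-values measure only the spread between these libraries, which may in part be technical. Members were tested with limma on log2(FPKM + 1), a scale that understates changes of low genes, and were called at a Benjamini-Hochberg adjusted p under 0.05 over all genes tested.

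**Figure D1:**
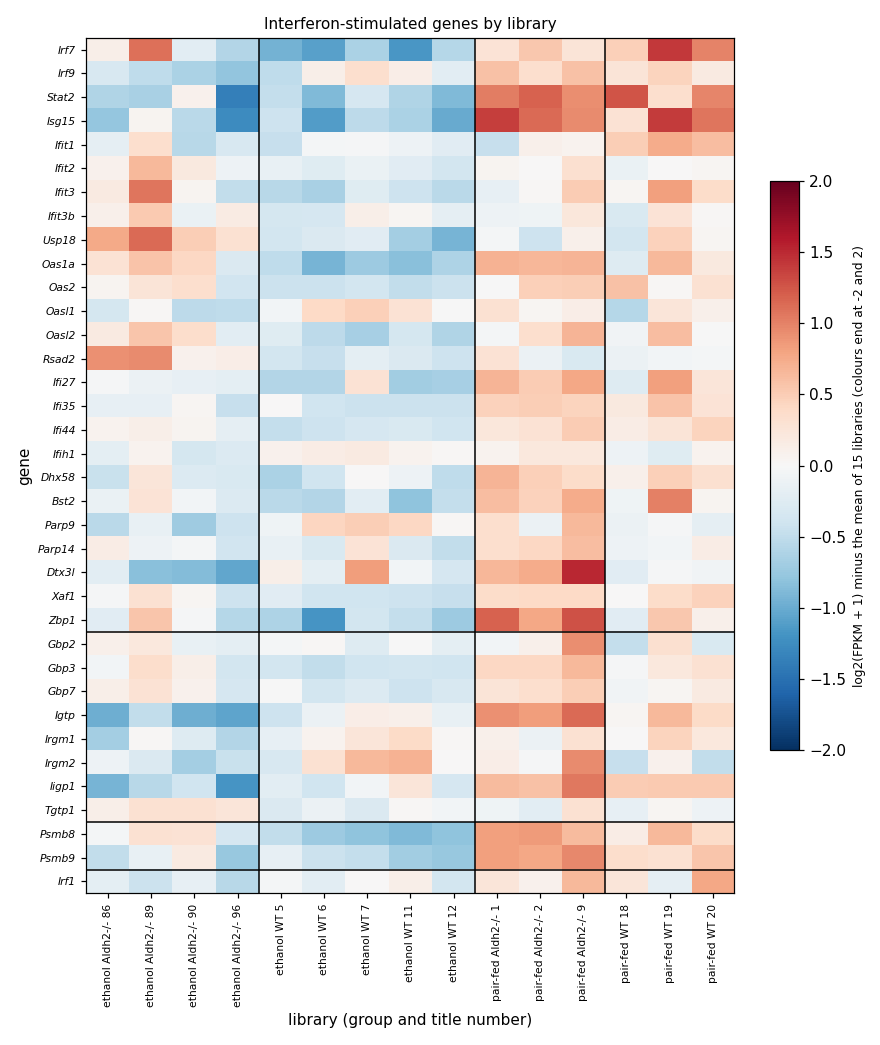
Each row is 1 of the 36 genes and each column 1 of the 15 libraries, with colour giving log2(FPKM + 1) minus the gene's mean over all libraries. Horizontal lines separate type I targets, GTPases, the immunoproteasome and Irf1, and vertical lines the 4 groups. The pair-fed groups on the right are red for most genes, Usp18 and Rsad2 are reddest in ethanol-fed Aldh2-/- livers, and Igtp is bluest there.

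In ethanol-fed mice, loss of Aldh2 was accompanied by a split within the set. Of the 31 members tested, 10 were higher in Aldh2-/- livers, among them Usp18, Oas1a, Rsad2, Oasl2, Irf7 and Psmb8, at 2.25-fold to 2.82-fold for the first 5 and 1.81-fold for Psmb8. Another 9 were lower, among them the GTPases Igtp, Iigp1, Irgm2 and Irgm1, and Parp9, Dtx3l, Oasl1, Irf9 and Ifih1. Genes were tested at a mean of at least 0.5 FPKM over both groups. Ifit2 and Xaf1, among the 10 higher, averaged less than that in WT livers and passed only through the Aldh2-/- libraries. Over all 11013 genes tested, 21.5% were called higher and 15.7% lower, so the members were called more often than the average gene in both directions, and their median log2 change of 0.13 lay near the 0.04 of all genes. Type I targets had a median of 0.24 (8 of 22 tested higher, 5 lower) and GTPases a median of -0.55 (1 of 6 higher, 4 lower). The GTPase median stayed below 0 in all 20 alternative analyses, but was -0.20 without a filter on low values, where Gbp7 (0.681 ± 0.296 against a mean of 0.339 FPKM) and Tgtp1 entered. Values of 10 of the 31 tested members did not overlap between genotypes (7 called higher, 3 called lower), against 27.1% of all genes tested. Ifit2 was among those 7. Values did not overlap for 2 further members that were too low to be tested.

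Among the regulators, Irf7, the factor that amplifies type I interferon signalling, stood at 17.1, 22.4, 28.6 and 57.2 FPKM in Aldh2-/- livers and at 11.1, 11.8, 13.1, 16.4 and 17.3 FPKM in WT livers. The Aldh2-/- libraries were the higher ones with an overlap of a single pair, and library 89 was far above the other Aldh2-/- libraries. The change was 0.99 ± 0.29 (log2 ± SE, adjusted p = 0.0205). Irf9, the DNA-binding part of the type I complex, went the other way, with 3.74 to 5.53 FPKM in Aldh2-/- and 4.77 to 9.32 FPKM in WT livers (-0.53 ± 0.17, adjusted p = 0.0287). Stat2, its partner, was 4.46 ± 2.23 FPKM (SD, n = 4) against 4.18 ± 0.861 FPKM (SD, n = 5), with a log2 difference of 0.00 ± 0.24 (adjusted p = 0.998). Irf1, a factor induced by interferon gamma, had -0.24 (adjusted p = 0.15), and was called lower once the libraries were rescaled by median ratios (adjusted p = 0.0277).

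Usp18, the protease that takes Isg15 off proteins and dampens the type I receptor, had the largest log2 change and the smallest adjusted p of the higher members, although the fold of group means was larger for Rsad2 (2.82) and Oas1a (2.77). It stood at 9.24, 10.6, 13.0 and 17.1 FPKM in Aldh2-/- livers and at 3.34, 4.18, 5.38, 5.76 and 6.08 FPKM in WT livers. Every Aldh2-/- library was above every WT library, at 2.52-fold on average (log2 1.17 ± 0.19, adjusted p = 0.00119). Isg15 itself, the small modifier that Usp18 removes, was 4.31, 6.43, 7.73 and 12.2 FPKM in Aldh2-/- livers and 4.84, 5.36, 7.23, 7.88 and 8.59 FPKM in WT livers. Those ranges overlapped almost whole, and the difference of 0.10 ± 0.24 did not pass (adjusted p = 0.764).

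The 2'-5' oligoadenylate synthetase family, which senses double-stranded RNA, was divided. Oas1a stood at 2.07, 3.59, 3.98 and 4.55 FPKM in Aldh2-/- livers against 0.962, 1.11, 1.27, 1.45 and 1.62 FPKM in WT livers, without overlap (0.97 ± 0.16, adjusted p = 0.00147). Oasl2 stood at 1.19, 1.87, 2.24 and 2.72 FPKM against 0.596, 0.672, 0.772, 0.992 and 1.15 FPKM, again without overlap (0.69 ± 0.15, adjusted p = 0.00544). Its neighbour on chromosome 5, Oasl1, a related protein known for holding back translation of Irf7, went the other way. It stood at 1.98, 2.04, 2.37 and 3.35 FPKM in Aldh2-/- livers and at 3.12, 3.26, 4.25, 4.65 and 4.96 FPKM in WT livers, so that only library 89 reached the WT range (-0.56 ± 0.15, adjusted p = 0.0145). Oas2 was too low to be tested under ethanol, at 0.177 to 0.940 FPKM against 0.0927 to 0.191 FPKM. Oas1a has close copies such as Oas1g, between which the authors' counting may have split reads.

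Rsad2, the antiviral enzyme viperin, stood at 1.63, 1.74, 3.69 and 3.81 FPKM in Aldh2-/- livers and at 0.807, 0.860, 0.936, 1.04 and 1.17 FPKM in WT livers. The groups did not overlap, and libraries 86 and 89 were about equally far above the other Aldh2-/- ones (0.87 ± 0.19, adjusted p = 0.00502). The Ifit proteins, which bind foreign RNA and block its translation, gave 1 call in 3 tested genes. Ifit2 was 0.470 to 1.48 FPKM against 0.220 to 0.436 FPKM (0.43 ± 0.13, adjusted p = 0.0281), Ifit3 reached 0.68 without passing (adjusted p = 0.052) and Ifit1 differed by -0.01 (adjusted p = 0.963). Ifit2 passed the filter on low values only through the Aldh2-/- libraries and kept its call in 10 of 18 alternatives. Bst2, the membrane protein tetherin that holds budding virus, was among the most abundant members at 217 to 317 FPKM against 149 to 225 FPKM (0.48 ± 0.15, adjusted p = 0.0255). Xaf1, a promoter of cell death, was called by a narrow margin (0.36 ± 0.13, adjusted p = 0.0481) and kept its call in 6 of 19 alternatives. Zbp1, a nucleic acid sensor that can start necroptosis, had 0.61 (adjusted p = 0.0502).

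Parp9 and Dtx3l, which form a complex of an ADP-ribosyltransferase-like protein and a ubiquitin ligase, were both lower. Parp9 stood at 3.64, 4.20, 4.67 and 5.79 FPKM in Aldh2-/- livers and at 6.08, 6.71, 9.11, 9.22 and 9.64 FPKM in WT livers, with no overlap (-0.71 ± 0.15, adjusted p = 0.00536). Dtx3l stood at 0.291, 0.453, 0.501 and 1.30 FPKM against 1.12, 1.34, 1.55, 1.89 and 3.77 FPKM, where Aldh2-/- library 86 alone reached the WT range (-0.81 ± 0.24, adjusted p = 0.0205). Without Aldh2-/- 90 Dtx3l was not called (adjusted p = 0.0538). The gene models of this pair overlap at their starts on opposite strands of chromosome 16, and whether the counting used strand is not given in the sources used here. Parp14, a member of the same family, differed by 0.10 and was not called. Of the RNA sensors, Ifih1 (MDA5) was lower (-0.29 ± 0.10, adjusted p = 0.0374) and Dhx58 (LGP2) had 0.13. Ifi27 and Ifi35 had 0.33 and 0.15 and were not called.

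The immunity-related GTPases of the set that could be tested, Igtp, Irgm1, Irgm2 and Iigp1, were all lower in ethanol-fed Aldh2-/- livers. Such GTPases load onto and break up the vacuoles of intracellular parasites. Igtp stood at 2.91, 3.12, 3.13 and 4.76 FPKM against 5.08, 6.29, 6.45, 7.73 and 7.89 FPKM in WT livers, with no overlap although library 89 lay well above the other Aldh2-/- ones (-0.78 ± 0.15, adjusted p = 0.00249). Iigp1 stood at 14.5, 17.4, 22.8 and 25.5 FPKM against 25.6, 26.9, 29.3, 32.8 and 40.8 FPKM, groups that only just did not overlap (-0.62 ± 0.18, adjusted p = 0.0204). Irgm2 (-0.65 ± 0.21, adjusted p = 0.0306) and Irgm1 (-0.48 ± 0.16, adjusted p = 0.0355) had overlapping groups and each kept its call in 12 of 20 alternatives. Iigp1 lost its call without Aldh2-/- 86 (adjusted p = 0.0621). The gene models of Igtp and Irgm2 overlap on the plus strand of chromosome 11, so reads there cannot be assigned with certainty.

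Guanylate-binding proteins, a second GTPase family with the same kind of target, did not share this direction. Gbp3 was higher, at 0.598 to 1.62 FPKM against 0.454 to 0.586 FPKM without overlap (0.42 ± 0.12, adjusted p = 0.0226), and Gbp2 differed by 0.09. Gbp7 was too low to be tested, as was Tgtp1, which belongs to the immunity-related GTPases. Tgtp1 nevertheless had no overlap, at 0.350 to 0.540 FPKM in Aldh2-/- livers and 0.0183 to 0.269 FPKM in WT livers, with the Aldh2-/- libraries above. Outside the set, the immunity-related GTPase Tgtp2 was likewise low and above (0.110 to 0.421 against 0.0511 to 0.0826 FPKM). Ifi47, another, had overlapping groups (2.49 to 5.64 against 2.70 to 4.07 FPKM) and was not called. The direction was thus not shared by the whole family. The immunoproteasome was divided as well. Psmb8, the subunit that replaces the catalytic Psmb5, stood at 18.6, 23.0, 29.1 and 29.3 FPKM in Aldh2-/- livers against 12.4, 13.1, 13.1, 13.9 and 16.6 FPKM in WT livers, without overlap (0.79 ± 0.14, adjusted p = 0.00209). Psmb9, which replaces Psmb6, had overlapping groups of 5.72 to 11.9 FPKM and 5.72 to 9.16 FPKM (0.20, adjusted p = 0.427).

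**Figure D2:**
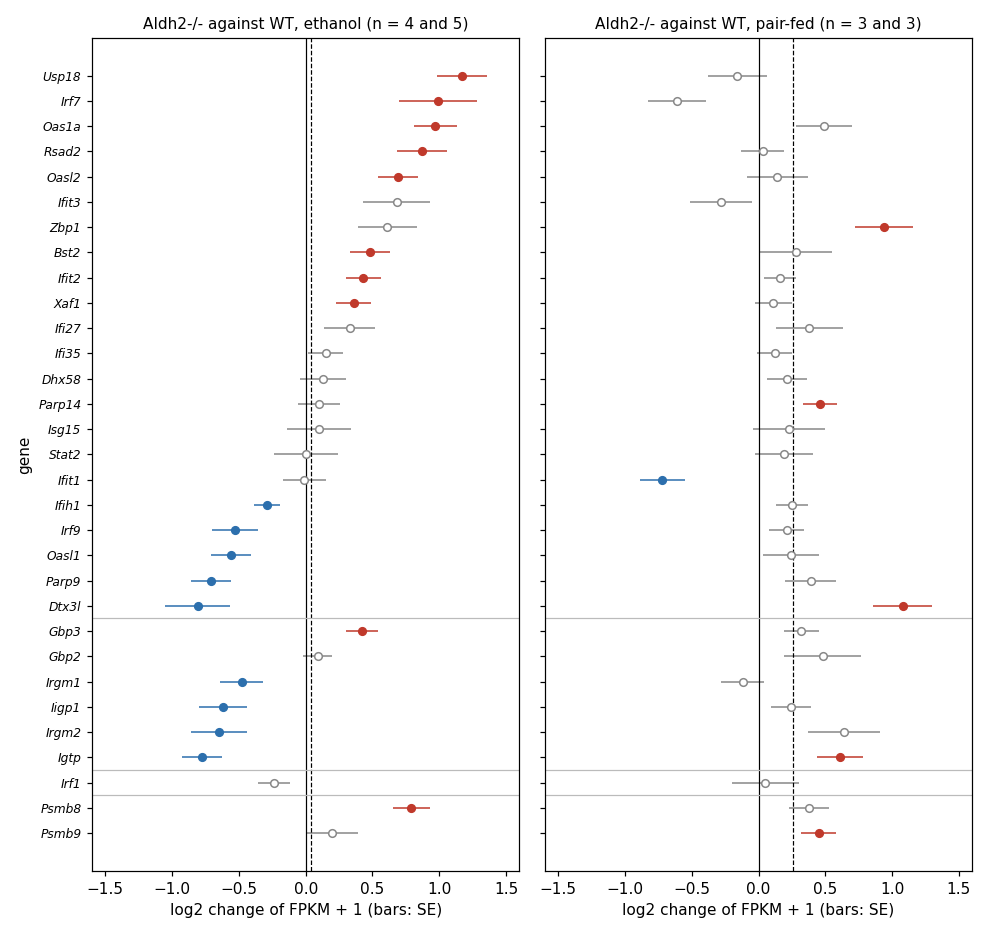
Points give the log2 change of FPKM + 1 in Aldh2-/- against WT livers for each tested gene, with the SE as bars, under ethanol on the left and pair-feeding on the right. Filled points were called (red higher, blue lower), open ones were not, grey lines separate the classes and the dashed line is the median of all genes. On the left the members spread to both sides of 0, and on the right most lie near the dashed line at 0.26.

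These calls did not all rest equally well on the data. Usp18, Oas1a, Oasl2, Rsad2 and Psmb8 among the higher members, and Oasl1, Parp9 and Igtp among the lower, were called in every alternative in which they were tested. The other calls were lost in some. Ifih1 kept its call in 10 of 20 alternatives, Gbp3 in 12 of 19 and Irf9 in 13 of 20. Bst2 kept it in 14 of 20, Dtx3l in 15 of 19 and Irf7 in 18 of 20. After median-ratio rescaling the members split into 8 higher and 10 lower, and after quantile normalization into 7 higher and 10 lower, as all genes moved from 2365 higher and 1733 lower to 1942 and 2447, or 1903 and 2303. The count of higher members was 6 without Aldh2-/- 89 or without WT 6, and that of lower members was 5 without any 1 of Aldh2-/- 90, Aldh2-/- 96, WT 6, WT 7 or WT 11. Leaving out both libraries with a high mitochondrial share, WT 5 and Aldh2-/- 90, gave 6 higher and 7 lower.

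**Figure D3:**
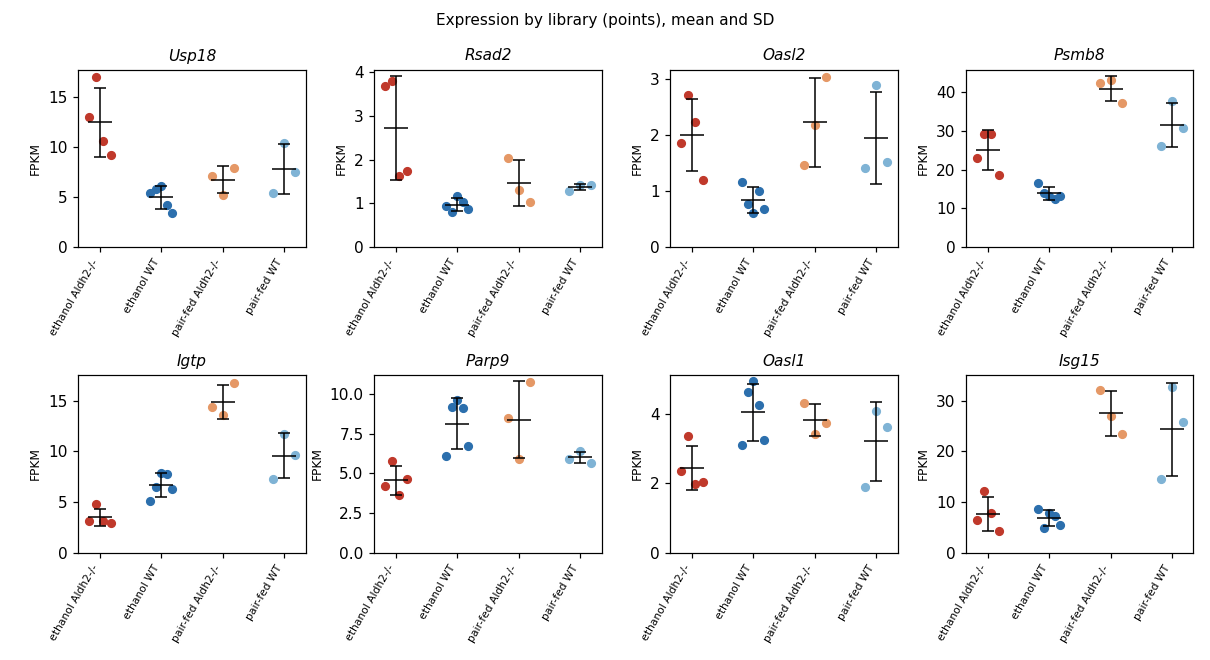
FPKM of 8 genes in every library, with 1 point per library, the horizontal mark at the group mean and bars of 1 SD. Usp18, Rsad2, Oasl2 and Psmb8 are higher and Igtp, Parp9 and Oasl1 lower in ethanol-fed Aldh2-/- than in ethanol-fed WT livers, and Isg15 differs by diet and not visibly by genotype.

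The libraries of a group also differed from each other in step. Of 34 members compared, Aldh2-/- 89 had the highest value of its group for 23 and Aldh2-/- 96 the lowest for 26. The median of type I targets, centred on each gene's mean within the diet, was 0.51 in library 89, 0.22 in 90, 0.18 in 86 and -0.17 in 96, against -0.24 to 0.06 in the 5 WT libraries. For the GTPases the Aldh2-/- libraries lay at -0.42 to 0.13 and the WT libraries at 0.01 to 0.49. Library 89 was thus the highest and library 96 the lowest ethanol-fed Aldh2-/- library in both classes, while the classes differed in which genotype was higher. Pair-fed libraries differed in the same way. Of the 34 members, pair-fed WT 18 was lowest in its group for 26 and WT 19 highest for 21. Pair-fed Aldh2-/- 9 was highest in its group for 23.

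**Figure D4:**
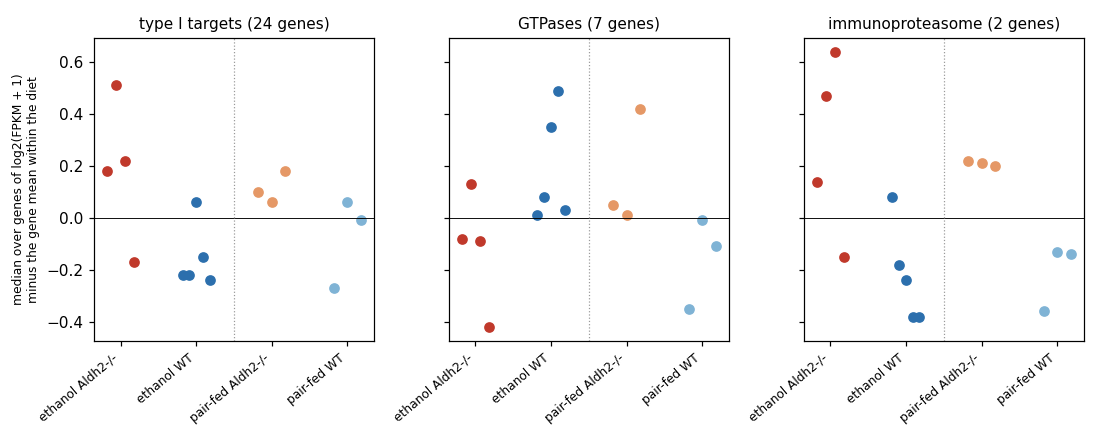
Each point is 1 library, and its height is the median over the genes of a class of log2(FPKM + 1) minus the gene's mean within the diet. Under ethanol the Aldh2-/- points lie mostly above the WT points for type I targets (-0.17 to 0.51 against -0.24 to 0.06) and mostly below for GTPases (-0.42 to 0.13 against 0.01 to 0.49). Levels are centred within each diet, so they say nothing of the difference between diets.

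Upstream of the set, the interferons were barely present. Of 21 interferon genes looked for, 4 were in the tables (Ifnb1, Ifnk, Ifnz and Ifng), none reached the level for testing, and the highest value in any library was 0.155 FPKM, for Ifnk in pair-fed WT 19. Ifng was listed above 0 in 1 library, pair-fed Aldh2-/- 2, at 0.0243 FPKM. Of the receptors, Ifngr1 was higher in Aldh2-/- livers under both diets (0.87 ± 0.16, adjusted p = 0.00224, under ethanol and 0.89 ± 0.18, adjusted p = 0.0149, under pair-feeding), as was Il10rb, a chain shared by the interferon lambda receptor (0.77 and 0.62). Ifngr2 was called higher under pair-feeding (0.71 ± 0.20) and had -0.43 under ethanol (adjusted p = 0.0584), a difference that passed as an interaction (-1.14 ± 0.27). Ifnlr1 was too low to be tested, and Ifnar1, Ifnar2, Jak1, Jak2 and Tyk2 were not called in either. Among 13 tested sensors and adaptors 4 were higher, including Tlr7 (1.10 ± 0.14), Sting1 (0.67 ± 0.14) and Irf5 (0.66 ± 0.14), and 1 was lower, Rigi (-0.45 ± 0.10). Tlr7 passed the filter on low values only through the Aldh2-/- libraries. Of 11 tested negative regulators 4 were higher and 0 lower. Over all genes tested under ethanol 21.5% were higher and 15.7% lower, so the higher counts of these 2 short lists lay not far from the background.

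Type I targets outside the set were also mostly higher where they were called. Of 24 other type I targets tested under ethanol, 12 were higher and 2 lower, with a median of 0.42, led by Ifi204 (1.15 ± 0.19) and followed by Phf11d, Oas1g and Isg20. Phf11d, Oas1g, Isg20 and Phf11b, all among the 12, averaged under 0.5 FPKM in WT livers. These passed the filter on low values only through the Aldh2-/- libraries. Of 17 other interferon gamma targets tested 5 were higher and 0 lower, against 21.5% and 15.7% of all genes, so the higher ones lay not far from the background. Among them were Irf8 (1.14 ± 0.19), Tap1, the peptide transporter (0.63 ± 0.12), and the histocompatibility gene H2-D1 (0.43 ± 0.12). Gbp9, also called higher, passed the filter on low values only through the Aldh2-/- libraries. The constitutive proteasome, by contrast, had 0 of 14 subunits higher and 4 lower, of which Psma4 had the smallest adjusted p (-0.40 ± 0.09). Psmb5, the counterpart of Psmb8, had -0.17 and was not called.

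Markers of other liver cells moved with the genotype under ethanol. Of 13 tested macrophage and Kupffer cell markers 12 were higher in Aldh2-/- livers, with C1qb at 1.91 ± 0.19, and the 15 on the list summed to 648 to 1406 FPKM against 280 to 345 FPKM in WT livers. Ly6c2, among the 12, passed the filter on low values only through the Aldh2-/- libraries. Of 7 general leukocyte markers 6 were higher (summed 56.6 to 123 against 36.2 to 51.4 FPKM) and of 10 endothelial markers 9 (110 to 152 against 46.7 to 99.5 FPKM). Of 9 hepatocyte markers 1 was higher and 1 lower (summed 59430 to 71360 against 70320 to 88700 FPKM). T and NK cell markers summed to 2.28 to 5.19 FPKM against 0.883 to 1.97 FPKM, with 1 of 15 high enough to be tested. That was Nkg7, which passed the filter only through the Aldh2-/- libraries. The 8 plasmacytoid dendritic cell markers summed to 37.8 to 184 FPKM against 21.7 to 43.5 FPKM. Most of that was Ly6d (37.5 to 183 against 21.5 to 43.1 FPKM). Of these markers 2 were tested and 0 called, and Siglech was at most 0.105 FPKM under ethanol. No listed marker was at 0 in all libraries of a group. Their part in the interferon-stimulated genes was not tested, and in bulk tissue fewer cells of a type and less RNA per cell cannot be told apart.

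Under pair-feeding the genotypes differed less clearly for the set. Of 34 members tested, 5 were higher in Aldh2-/- livers (Dtx3l, Zbp1, Psmb9, Parp14 and Igtp) and 1 lower (Ifit1), against 26% of 11138 genes higher and 2.41% lower, so the share of higher members was below that of all genes. The median over members was 0.23 and over all genes 0.26. That shift of all genes became 0.01 after median-ratio rescaling, which left 258 genes higher and 379 lower in place of 2894 and 268, and 0 members higher and 1 lower. Removing the mitochondrial genes, whose share differed between these groups, left 2 members higher and 1 lower.

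Dtx3l stood at 3.21, 3.44 and 6.62 FPKM in pair-fed Aldh2-/- livers and at 1.28, 1.54 and 1.62 FPKM in pair-fed WT livers (1.08 ± 0.22, adjusted p = 0.0154), so its groups were well apart in the direction opposite to that under ethanol. Zbp1 stood at 3.74, 5.26 and 5.71 FPKM against 1.36, 1.96 and 3.02 FPKM, also without overlap (0.94 ± 0.22, adjusted p = 0.0192). Igtp stood at 13.6, 14.4 and 16.8 FPKM against 7.31, 9.63 and 11.7 FPKM (0.61 ± 0.17, adjusted p = 0.0348). Ifit1, the exception, stood at 0.397, 1.03 and 1.07 FPKM against 1.71, 1.97 and 2.25 FPKM, all Aldh2-/- libraries lying below the WT ones (-0.72 ± 0.17, adjusted p = 0.0211). Psmb9 (0.45 ± 0.13) and Parp14 (0.46 ± 0.13) were called at an adjusted p of 0.0324 each and kept their call in 4 of 16 and 4 of 15 alternatives. Of the genes called higher in every alternative under ethanol, Usp18, Rsad2 and Oasl2 had -0.16, 0.03 and 0.14, and Oas1a and Psmb8 had 0.49 and 0.38. None of these was called, although Oas1a was called with library weights (adjusted p = 0.0306) and without WT 19 (adjusted p = 0.0236), as was Psmb8 (adjusted p = 0.0233 and 0.0374). Without Aldh2-/- 1 the counts were 1 higher and 0 lower, without Aldh2-/- 2 they were 3 and 1, without Aldh2-/- 9 they were 2 and 1, without WT 18 they were 2 and 2, without WT 19 they were 7 and 1, and without WT 20 they were 0 and 0. Of 15 macrophage markers 7 were higher here and 1, Ly6c2, lower (summed 456 to 596 against 216 to 325 FPKM). Over all genes 26% were called higher and 2.41% lower, with the shift described above. Of 10 endothelial markers 0 were higher and 1 lower.

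Whether the genotype effect differed between the diets was tested by the interaction, in which an offset between the separately scaled tables cancels. It was positive, the Aldh2-/- to WT difference under ethanol lying above that under pair-feeding, for 4 of 34 members (Usp18, Irf7, Rsad2 and Ifit1) and negative for 8 (Igtp, Dtx3l, Parp9, Ifih1, Irgm2, Iigp1, Irf9 and Oasl1). Over 11157 genes 8.06% were called positive and 29% negative, so both shares of the members lay close to the background. The medians were 0.12 for type I targets, -0.39 for GTPases and -0.22 for all genes. After median-ratio rescaling the median of all genes was -0.07, with 1379 genes positive and 1781 negative in place of 899 and 3235, and the members split into 6 positive and 4 negative.

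Dtx3l had the most negative interaction, -1.89 ± 0.37 (adjusted p = 0.00172), followed by Igtp with -1.39 ± 0.24 (adjusted p = 0.000768) and Irgm2 with -1.29 ± 0.36 (adjusted p = 0.0135). Dtx3l and Igtp were also the members called in both genotype comparisons, and in opposite directions. Under pair-feeding the call of Dtx3l held in 12 of 16 alternatives and that of Igtp in 7 of 16. Parp9, the partner of Dtx3l, had -1.10 ± 0.26 (adjusted p = 0.00475). On the positive side stood Irf7 with 1.59 ± 0.43 (adjusted p = 0.0103) and Usp18 with 1.33 ± 0.32 (adjusted p = 0.00518), while Rsad2 had 0.84 ± 0.28 (adjusted p = 0.0276). Ifit1 had 0.71 ± 0.26 (adjusted p = 0.044), from a difference of -0.01 under ethanol and -0.72 under pair-feeding. Irf7 and Usp18, and Parp9, Dtx3l, Igtp and Irgm2, were called in every alternative in which they were tested. The other calls were lost in some, and the number of positive members ran from 2 (without ethanol-fed Aldh2-/- 86 or pair-fed WT 20) to 9 (without ethanol-fed Aldh2-/- 96). The interaction was also negative for 11 of 14 constitutive proteasome subunits. It was positive for 5 of 15 macrophage markers and 6 of 10 endothelial markers, against 8.06% of all genes, and negative for 0 in either list. The part of these markers in the results was not tested.

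Most of the set was lower in ethanol-fed than in pair-fed livers, in both genotypes. In WT livers 0 of 34 members were higher and 20 lower, against 29.2% of genes higher and 11.9% lower. In Aldh2-/- livers 2 were higher, Usp18 and Rsad2, and 23 lower, against 17.6% and 29.3%. The medians over members were -0.64 and -0.53, beside 0.10 and -0.09 for all genes, and 14 members were lower in both genotypes, against 7.63% of the 11157 genes tested. Oas2, Ifi44 and Gbp7 passed the filter on low values in this fit only through the pair-fed libraries. Among the other 31 members 18 and 22 were lower. Each diet was deposited as its own table, so a difference between diets cannot be told apart from one between tables, nor, if the titles are right, from CCl4. Macrophage markers were higher with ethanol for 8 of 15 in Aldh2-/- livers and for 2 of 15 in WT livers, with 1 and 3 lower. Endothelial markers were higher for 7 of 10 in Aldh2-/- livers and for 0 of 10 in WT livers, with 0 and 2 lower. The part of these markers in the results was not tested. Both diet comparisons use groups of the genotype comparisons and are not independent of them.

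Isg15 showed this most plainly. It was 23.4, 26.9 and 32.2 FPKM in pair-fed Aldh2-/- livers and 14.5, 25.8 and 32.7 FPKM in pair-fed WT livers, above all 9 ethanol-fed values given earlier, which ended at 12.2 FPKM. Its log2 change was -1.66 ± 0.28 in WT (adjusted p = 0.000505) and -1.79 ± 0.29 in Aldh2-/- livers (adjusted p = 0.000163), a 3.59-fold difference in each. Stat2 was alike, at 9.06 to 17.9 FPKM in pair-fed and 2.09 to 7.46 FPKM in ethanol-fed livers, with -1.49 ± 0.26 and -1.68 ± 0.27. Both genes were called in every alternative in both genotypes, as were Ifi35, Dhx58, Gbp3, Iigp1, Psmb8 and Psmb9.

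Other members differed with diet mainly in 1 genotype. Irf7 was 36.8, 53.1 and 71.5 FPKM in pair-fed WT livers and at most 17.3 FPKM in ethanol-fed WT livers (-1.84 ± 0.30, adjusted p = 0.00042). Its pair-fed Aldh2-/- values were 31.4, 31.7 and 38.6 FPKM. Ethanol-fed Aldh2-/- libraries 96, 90 and 86 lay below all of these, at 17.1, 22.4 and 28.6 FPKM. Only library 89 lay above, at 57.2 FPKM, and the change in Aldh2-/- livers was not called (-0.25 ± 0.31, adjusted p = 0.534). The difference between the diet changes of Irf7 in Aldh2-/- and WT livers is the interaction of 1.59 given above. Igtp had the most negative change of the 34 members in Aldh2-/- livers (-1.84 ± 0.17, adjusted p = 1.63e-06) and a change of -0.45 ± 0.16 in WT livers (adjusted p = 0.0401). Dtx3l differed by -1.71 ± 0.27 in Aldh2-/- livers and by 0.18 ± 0.25, not called, in WT livers. Usp18 was higher with ethanol in Aldh2-/- livers, its pair-fed values of 5.23, 7.05 and 7.87 FPKM lying below all 4 ethanol-fed ones (0.79 ± 0.23, adjusted p = 0.0105), and its WT change of -0.55 ± 0.22 did not pass (adjusted p = 0.0574).

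Both immunoproteasome subunits were lower with ethanol in both genotypes. Psmb8 had 26.2, 30.7 and 37.7 FPKM in pair-fed WT and 37.2, 42.5 and 43.3 FPKM in pair-fed Aldh2-/- livers, all above every ethanol-fed library of the same genotype (-1.12 ± 0.15 and -0.71 ± 0.16). Psmb9 had 13.1 to 15.8 FPKM and 18.4 to 21.3 FPKM (-0.91 ± 0.18 and -1.16 ± 0.19). The constitutive subunits had 6 of 14 higher and 2 lower in WT livers, and 0 higher and 11 lower in Aldh2-/- livers. GTPases were lower for 3 of 7 in WT and 5 of 7 in Aldh2-/- livers, and type I targets for 15 of 24 in each. Over all genes 11.9% were lower in WT and 29.3% in Aldh2-/- livers. The type I targets called lower include Oas2 in WT livers and Ifi44 in both genotypes, and the GTPases tested include Gbp7, not called. As said above, these genes passed the filter only through the pair-fed libraries. After median-ratio rescaling the counts were 23 lower in WT livers, with 2531 genes higher and 2006 lower in place of 3258 and 1326, and 17 lower in Aldh2-/- livers. With the mitochondrial genes removed, 16 members were lower in Aldh2-/- livers, beside 2519 genes higher and 2516 lower in place of 1967 and 3264, and without pair-fed Aldh2-/- 9 the count was 14. The 2 higher members there were 0 without pair-fed Aldh2-/- 2 and 1 without any of ethanol-fed Aldh2-/- 86, ethanol-fed Aldh2-/- 89 or pair-fed Aldh2-/- 9. Without ethanol-fed WT 5, 2 members (Parp9 and Irgm2) were called higher in WT livers.

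**Figure D5:**
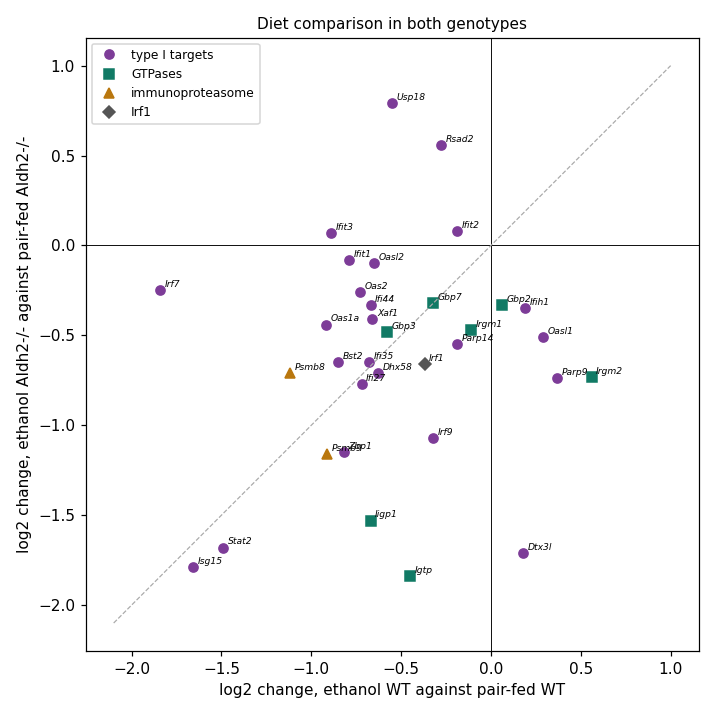
Each point is 1 of 34 genes, with its log2 change between ethanol-fed and pair-fed livers in WT on the horizontal and in Aldh2-/- on the vertical axis, and the dashed line marks equal change. Most genes lie below and left of 0. Isg15 and Stat2 sit near the dashed line at the far lower left, Usp18 and Rsad2 lie above 0 on the vertical axis, and Dtx3l, Igtp and Iigp1 lie well under the line.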

How the data were processed

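RNA-seq of 15 liver libraries was used. The deposited values were taken as FPKM, computed by the authors, in 1 table per diet with the same 23509 symbols. Per the submitters' processing notes, fastp, HISAT2 and HTSeq were used with mm10, and versions, the annotation and the strand setting are not given in the sources used here. Total counts were not used here. Of 17969 low values, 17967 lay within 0.02 of a step of a whole multiple, and the steps gave the relative depths, with a ratio of 1.23 from deepest to shallowest. Depth in fragments, and so counting intervals, stay unknown.

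The members, gene lists and rule for named genes were chosen with earlier results of these data known. The rule took all 36 members, interferon ligands, receptors and kinases of the pathway, the 4 genes with the smallest adjusted p of each other list, genes named as not passing, and Aldh2. A gene that the rule also took is not reported here.

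On log2(FPKM + 1), limma 3.58.1 (R 4.3.3, lmFit and trended eBayes) gave two-sided tests of every gene that averaged 0.5 FPKM or more, called at a Benjamini-Hochberg adjusted p under 0.05. Genotype comparisons used the groups of 1 table, and the interaction and diet comparisons all 4 groups. No test was made over the set. Gene models came from GENCODE vM21 (GRCm38) and promoter windows from RefSeq (GRCm38.p6). Tables and plots were made in Python 3.11.15 (matplotlib 3.10.9, pandas 2.3.3). The fitting procedure was tested on simulated data. The alternatives tried were another pseudocount (0.1), other filters (none, or 2 FPKM on average), median-ratio and quantile scaling, removal of mitochondrial genes, robust variances, library weights, a replicate block, other groups in the fit, and leaving out libraries.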

Additional observations from a re-analysis of the deposited data

Results flagged for a closer look

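Within ethanol-fed groups, 5 of 72 groups of values of a member held 1 library far from the rest by Dixon's criterion, and chance gives about 1 in 20. They were Ifi27 in WT 7 (90.48 FPKM, high; without this library Ifi27 was called higher in Aldh2-/- livers, adjusted p = 0.00536), Ifi35 in WT 5 (18.03 FPKM, high), Xaf1 in WT 5 (0.6257 FPKM, high), Gbp3 in WT 6 (0.4539 FPKM, low) and Igtp in Aldh2-/- 89 (4.761 FPKM, high).

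The genotype effect differed between the diets by limma's interaction, on the log2 scale, for Irf7 (1.59), Usp18 (1.33), Rsad2 (0.84), Ifit1 (0.71), Ifih1 (-0.54), Irf9 (-0.74), Oasl1 (-0.79), Iigp1 (-0.86), Parp9 (-1.10), Irgm2 (-1.29), Igtp (-1.39) and Dtx3l (-1.89).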

How the results depend on the processing

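No call of a member changed sign under any alternative. Without a filter, members called lower under ethanol numbered 4. Pair-feeding then gave 1103 genes, 0 members higher and 0 lower, the interaction 2 positive members and the diet comparison in Aldh2-/- livers 1 higher. With a mean of at least 2 FPKM, 5 members were higher under ethanol, 0 lower under pair-feeding, 2 positive in the interaction and 1 higher by diet in Aldh2-/- livers. Median-ratio and quantile scaling left 637 and 654 genes called under pair-feeding, with 0 members higher, and 4 negative members in the interaction. Removing mitochondrial genes left 1861 genes and 2 higher members under pair-feeding. Library weights gave 4826 genes and 2 lower members there, 8 positive members in the interaction and 2 higher by diet in WT livers. Fitting all 4 groups gave 3 higher members under pair-feeding, and fitting only 2 groups 1 higher by diet in Aldh2-/- livers. Without ethanol-fed WT 5 and Aldh2-/- 90, 6 members were higher under ethanol and 2 by diet in WT livers.

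Numbers in the sample descriptions did not pair the libraries (correlations of same-numbered deviations from -0.09 to 0.25 under ethanol and -0.02 to 0.03 under pair-feeding). With them as a replicate block, 7 members were higher and 5 lower under ethanol, 6 higher and 1 lower under pair-feeding, and 2 positive and 7 negative in the interaction.

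Leaving out 1 library at a time gave, for higher and lower members, 6 to 13 and 5 to 9 under ethanol, 0 to 7 and 0 to 2 under pair-feeding (294 to 2870 genes), 2 to 9 and 6 to 8 in the interaction, 0 to 2 and 16 to 22 by diet in WT livers, and 0 to 2 and 14 to 25 by diet in Aldh2-/- livers. The cause of these shifts was not tested. Members under 0.5 FPKM in the fit were not tested, and 3 libraries per group limit the pair-fed comparison.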
